A study of Mus musculus with 6 samples.

Results

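The 7 genes described here encode the importins of classical nuclear import in the mouse: the adaptor genes Kpna1, Kpna2, Kpna3, Kpna4, Kpna6 and Kpna7, which make importin alpha, and Kpnb1, which makes the receptor importin beta. They were chosen by gene symbol, and the 7 symbols matched 7 of the 29139 Ensembl identifiers in the deposited table of read counts. The RNA came from ICR mouse embryos at the 2-cell stage, cultured in KSOM medium either with 75 µM MS-444, a small molecule reported to inhibit the RNA-binding protein HuR, or with 0.1% DMSO, its solvent. Each group had 3 libraries, each from 16 embryos, and neither the time in culture nor the source of the embryos is given in the sources used here. Each value is therefore an average over pooled embryos, and fewer cells holding a transcript cannot be told apart from less of it per cell. Levels are scaled to each library's own counts, so neither the number of cells nor the total RNA per cell can be read from them.

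Importin alpha recognises the nuclear localisation signal of a cargo protein and binds importin beta, which carries the pair through the nuclear pore. In the nucleus the GTPase Ran, loaded with GTP, releases the cargo, and importin alpha is returned to the cytoplasm by the exportin Cse1l. In the mouse the adaptors form 3 subfamilies, Kpna2 with Kpna7, Kpna3 with Kpna4, and Kpna1 with Kpna6. Kpna7 is the form of the oocyte and early embryo, and its transcript is inherited from the oocyte. Kpna6 is known from mouse knockouts to be needed by the early embryo as a maternal product.

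The importin set was proposed with the response of these libraries to MS-444 already known, so its differences between treatments are given as a description and not as a test. Library totals ran from 2637763 to 4695866 counts. Levels are in CPM, the counts of a gene scaled to a common library size over the tested genes after TMM normalisation. Libraries are listed in the order of replicates 1, 2 and 3. CPM per kilobase of joined exons is used where genes are compared with each other. That scale takes counts to grow with transcript length, which was not tested for these libraries. Of the 8 markers listed for the 2-cell embryo, 7 were in the table, each with 10 counts or more over the 6 libraries, and they summed to 1212 to 1899 CPM in DMSO and 1207 to 1673 CPM in MS-444. Zscan4f was called lower with MS-444 (log2 fold change -1.47, edgeR adjusted p = 0.044), though its groups overlapped, and the other 6 were not called. In edgeR 11.1% of all genes tested were called lower and 14.4% higher. Of the 8 listed for cumulus and granulosa cells, 7 were in the table, 2 of them reached 10 counts, none was at 0, and they summed to 7.20 to 8.52 CPM in DMSO and 4.12 to 4.76 CPM in MS-444. The 8 oocyte markers summed to 4045 to 6453 CPM in DMSO and 2089 to 2423 CPM in MS-444. The 8 markers of morula and blastocyst, 7 of them with 10 counts or more, summed to 61.0 to 91.5 CPM and 105.5 to 129.3 CPM.

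The promoters of Kpna7 and of Kpna2, its closest relative, are shown because Kpna7 had the largest difference between treatments of the 7 genes. RefSeq promoters (GRCm38.p6, 250 bases before to 50 after the start) were matched for 4 of the 7 genes. The Kpna7 promoter, at chr5:145009587-145009886 on the minus strand, held 4 CpG dinucleotides and 46.7% G and C. The Kpna2 promoter, at chr11:106999476-106999775 on the minus strand, held 24 and 57.7%, and those of Kpna4 and Kpnb1 held 27 and 35 CpG, against a median of 7 over 32841 promoters. In the Kpna7 sequence, capitals mark the E-box CANNTG, counted on both strands. In the Kpna2 sequence they mark the CCAAT box.
Kpna7: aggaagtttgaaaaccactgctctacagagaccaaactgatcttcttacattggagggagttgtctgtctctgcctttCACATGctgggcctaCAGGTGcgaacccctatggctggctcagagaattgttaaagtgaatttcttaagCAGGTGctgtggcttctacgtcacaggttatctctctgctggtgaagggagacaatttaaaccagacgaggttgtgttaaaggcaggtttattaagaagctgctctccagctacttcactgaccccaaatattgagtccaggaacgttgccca
Kpna2: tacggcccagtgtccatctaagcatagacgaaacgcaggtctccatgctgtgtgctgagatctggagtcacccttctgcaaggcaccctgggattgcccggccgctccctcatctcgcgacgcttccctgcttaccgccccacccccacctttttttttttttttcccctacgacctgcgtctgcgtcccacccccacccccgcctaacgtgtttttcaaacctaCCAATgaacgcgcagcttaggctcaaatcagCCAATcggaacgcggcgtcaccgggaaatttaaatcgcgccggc
The Kpna7 promoter held 3 matches to CANNTG and those of Kpna2, Kpna4 and Kpnb1 held 0, where 72.3% of all promoters held at least 1. The CCAAT box was found on either strand in all 4, with 1 match in Kpna7, 2 in Kpna2, 2 in Kpna4 and 3 in Kpnb1, and in 37.4% of all promoters. TAATTG, the element bound by the oocyte factor Nobox, and TATAAA were in none of the 4, and in 8.0% and 13.6% of all promoters.

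The 3′ untranslated regions, where AU-rich elements bind HuR and related proteins, were read from the sense strand of GENCODE M21 transcripts. ATTTA, the core of the AU-rich element, was found 0 times in the 740 bases of Kpna7, 1 time in the 258 bases of Kpna2 and 4 to 12 times in those of the other 5 genes, which are 2420 to 6940 bases long. It was found in 69.5% of the 10056 tested genes with such a region. TTTTAT, the core of the element that directs polyadenylation in the cytoplasm, was found 1 time in Kpna7 and 0 times in Kpna2, and in 57.3% of genes. The Kpna7 match lay 347 bases before the end of its region, and whether it acts there was not tested. The Pumilio element TGTANATA was found 2 times each in Kpna2 and Kpna4 and in none of the other 5, against 26.1% of genes. Each site of the shorter Kpna7 and Kpna2 regions is shown in 30 bases, with the match in capitals.
Kpna7, TTTTAT: gtggcaaacattTTTTATcagccgagggat
Kpna2, ATTTA: gctgtcctctgaATTTAtttctatgtggaa
Kpna2, first Pumilio element: acagttataaacTGTACATActctatgaag
Kpna2, last Pumilio element: cctgtcatgtccTGTAAATAaagattaaag

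Importin mRNA in the control embryos was made up mostly of 3 adaptors. In DMSO the level per kilobase was highest for Kpna2, at 291.2 ± 166.1 CPM per kilobase (SD, n = 3), followed by Kpna3 at 250.7 ± 62.8 and Kpna7 at 149.4 ± 44.0. These 3 neighbours in the order overlapped in range, and each lay above at least 97.0% of tested genes on this scale. Kpna1 stood at 16.0 ± 8.52 and Kpnb1 at 9.91 ± 1.22, which overlapped as well. Kpna6 at 5.91 ± 0.562 lay below every Kpnb1 value, and Kpna4 at 1.42 ± 0.898 lay below every Kpna6 value. With MS-444 the order was Kpna3 (206.0 ± 88.5 CPM per kilobase), Kpna2 (178.1 ± 40.2), Kpna1 (38.6 ± 14.0), Kpna7 (32.2 ± 2.32), Kpnb1 (15.9 ± 0.242), Kpna6 (7.67 ± 2.03) and Kpna4 (3.10 ± 0.853). Kpna3 overlapped with Kpna2 there, and Kpna1 with Kpna7, and no other neighbours did. On this scale Kpna7 was thus above Kpna1 in every DMSO library and overlapped with it under MS-444. Its level there was above that of 85.0% of tested genes. The order depends on the length used. By longest transcript, Kpna1 made up 11.7%, 10.9% and 10.3% of the summed importin alpha level in the MS-444 libraries. Kpna7 made up 5.66%, 7.26% and 9.15%, below Kpna1 in each. As plain counts, Kpna3 came first in DMSO, at a mean of 42.3% against 32.0% for Kpna2.

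Kpna7 (ENSMUSG00000038770), the oocyte form, was lower with MS-444. Its levels were 367.0, 412.8 and 625.4 CPM in the DMSO libraries and 108.1, 93.5 and 101.2 CPM in those given MS-444. The groups did not overlap, and the MS-444 libraries lay within 1.16-fold of each other where the DMSO libraries spanned 1.70-fold. The group means were 468.4 ± 137.9 and 100.9 ± 7.29 CPM (SD, n = 3), a 4.64-fold difference, with a log2 fold change of -2.21 (SE 0.27) in the fit over all genes. Of the 11864 genes tested, 76 (0.641%) had a lower log2 fold change. Of the 8 oocyte markers, all tested, 5 fell in edgeR (Zp2, Gdf9, Bmp15, Nlrp5 and Padi6) and 0 rose, where 11.1% of all genes tested fell and 14.4% rose. Ooep and Zar1 overlapped between groups, and Zp3 was higher in each MS-444 library without passing the test. The sum of the 8 was mostly Bmp15, at means of 3821 and 1628 CPM. The part of these markers in the Kpna7 difference was not tested.

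Kpna2 (ENSMUSG00000018362), the closest relative of Kpna7 and an adaptor typical of dividing and pluripotent cells, differed more among the control libraries than between treatments. It stood at 1378, 655.6 and 476.6 CPM in the DMSO libraries and at 629.4, 506.9 and 398.4 CPM in those given MS-444. The groups overlapped, and the highest DMSO library was 2.89-fold above the lowest. The log2 fold change was -0.71 (SE 0.37), and ran from -0.20 without DMSO replicate 1 to -1.04 without DMSO replicate 3. In DMSO replicate 1 Kpna2 was at its highest of the 3 control libraries and Kpna7 at its lowest, and in DMSO replicate 3 the reverse held. A pseudogene, Kpna2-ps, had 4, 1 and 2 counts in the DMSO libraries and 0 in each MS-444 library, so that few reads were assigned to it.

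Kpna3 and Kpna4, adaptors of the same subfamily, stood far apart in level, and Kpna4 was the lowest of the 7 genes in both groups. Kpna3 (ENSMUSG00000021929) was at 999.8, 855.2 and 1378 CPM in the DMSO libraries and at 1322, 705.9 and 628.2 CPM in those given MS-444. The groups overlapped, with MS-444 replicate 1 near the highest control library (log2 fold change -0.28, SE 0.31). Kpna4 (ENSMUSG00000027782) was at 16.8, 3.45 and 17.9 CPM in DMSO and 35.5, 20.3 and 27.2 CPM in MS-444. The groups did not overlap, but the log2 fold change of 1.14 had an SE of 0.52, and DMSO replicate 2 rested on 15 counts. Without that library the log2 fold change of Kpna4 was 0.61.

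Kpna1 (ENSMUSG00000022905), an adaptor used in many tissues, was higher with MS-444. It stood at 210.7, 66.3 and 130.9 CPM in the DMSO libraries and at 460.5, 288.3 and 233.4 CPM in those given MS-444. The lowest MS-444 library lay just above the highest DMSO library. The group means were 136.0 ± 72.3 and 327.4 ± 118.5 CPM (SD, n = 3), a 2.41-fold difference, with a log2 fold change of 1.27 (SE 0.41). With DMSO replicate 2 left out it was 0.88, and with MS-444 replicate 1 left out 0.90. Of the 6 markers of morula and blastocyst that were tested, 3 rose in edgeR (Krt8, Krt18 and Eomes) and 0 fell. Of all genes tested, 14.4% rose and 11.1% fell. Krt8 had 3, 4 and 3 counts in the DMSO libraries and 8, 24 and 13 in those given MS-444. Tfap2c was higher in each MS-444 library without passing the test (log2 fold change 0.72). Gata3 and Gata6 overlapped between groups with log2 fold changes of -0.37 and -0.29. The part of these markers in the Kpna1 difference was not tested.

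Kpna6 (ENSMUSG00000003731), the relative of Kpna1 needed as a maternal product, was among the steadiest of the 7 in the control embryos. Its levels were 41.6, 35.5 and 42.4 CPM in the DMSO libraries and 45.8, 41.8 and 67.2 CPM in those given MS-444. The groups overlapped because MS-444 replicate 2 fell within the control range, and the log2 fold change was 0.38 (SE 0.28). Kpna6 was not called in the main fit or in any of the 15 alternatives (0.13 to 0.57). Of these 2 maternal products, Kpna7 was lower with MS-444, while a direction for Kpna6 was not established.

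Kpnb1 (ENSMUSG00000001440), the receptor shared by every adaptor, was the least variable with the inhibitor. It stood at 73.2, 57.1 and 65.6 CPM in the DMSO libraries and at 102.9, 105.2 and 106.0 CPM in those given MS-444. Each MS-444 library lay above each DMSO library, at 104.7 ± 1.59 against 65.3 ± 8.04 CPM (SD, n = 3), with a log2 fold change of 0.68 (SE 0.24). With library totals in place of TMM it was 0.87.

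**Figure D1:**
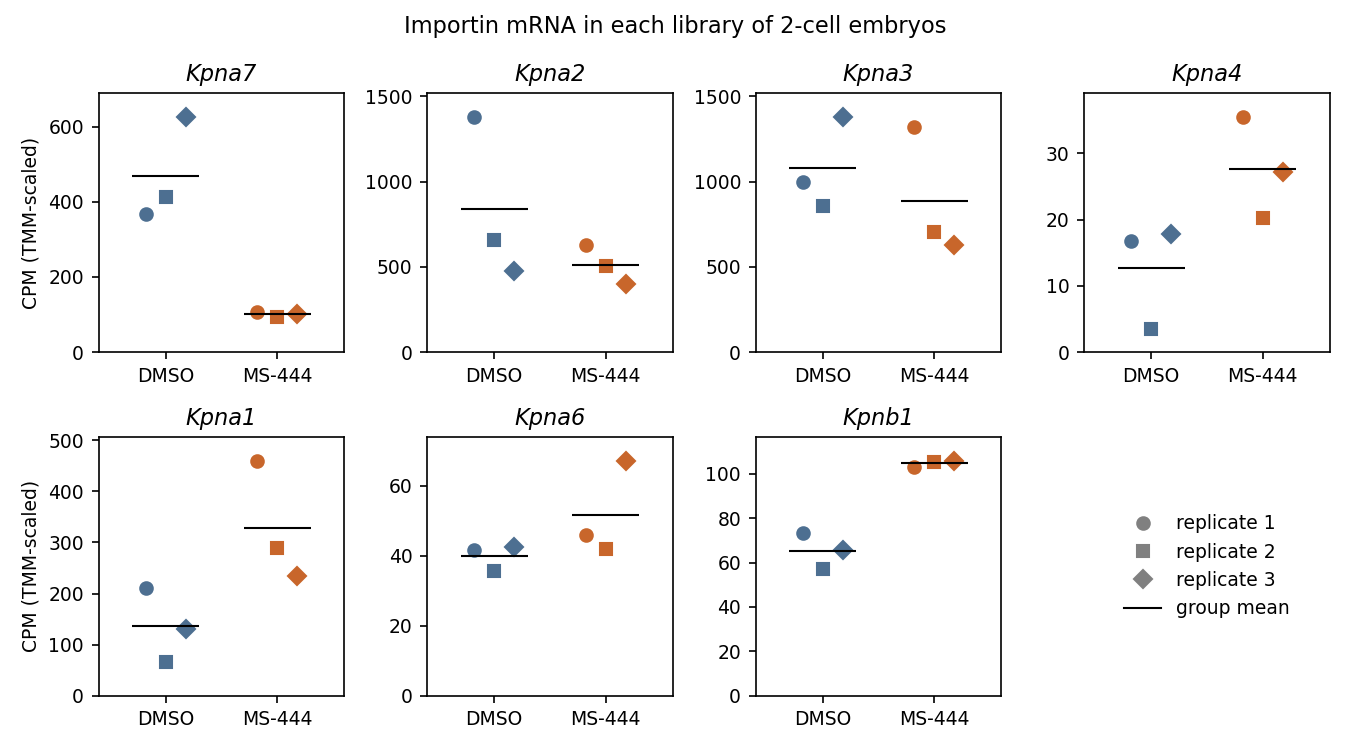
Level of each importin gene in CPM (linear axis from 0, scaled per gene) in the 3 DMSO and 3 MS-444 libraries, with a symbol for each replicate and a line at the group mean. Kpna7 lies at 367.0 to 625.4 CPM in DMSO and 93.5 to 108.1 CPM in MS-444, while Kpna1, Kpna4 and Kpnb1 are higher in each MS-444 library than in each DMSO library.

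Across the set, 4 genes had a log2 fold change above 0 and 3 below it, with a median of 0.38 against 0.02 for all genes tested. The groups did not overlap for 4 of the 7, Kpna1, Kpna4 and Kpnb1 higher and Kpna7 lower, where 43.9% of the genes tested did not overlap, 23.0% higher and 20.9% lower. The edgeR quasi-likelihood fit called 2 of the 7, Kpna1 higher and Kpna7 lower, where it called 25.5% of the genes tested. Kpna7 kept its call in each of 15 alternative settings, with log2 fold changes from -2.43 to -2.00. These settings reuse the libraries whose response was known when the set was proposed, so they describe the difference and do not test it anew. The call of Kpna1 ended when any library other than DMSO replicate 1 was left out (0.88 to 1.45). Kpnb1 was called with library totals, with a minimum count of 30 and with offsets for length and GC (0.70 to 0.87), and Kpna4 without a filter on low counts and with a replicate block (1.08 and 1.33).

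**Figure D2:**
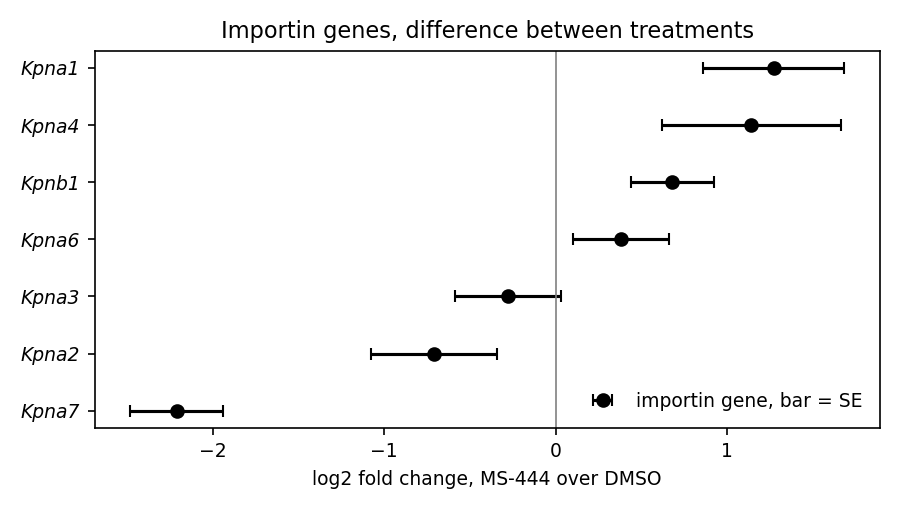
Log2 fold change of MS-444 over DMSO for the 7 importin genes, from the fit over all genes, with bars for the SE. Kpna7 stands at -2.21, apart from Kpna2 at -0.71 and Kpna3 at -0.28, and the other 4 genes lie between 0.38 and 1.27.

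The make-up of importin alpha mRNA differed between the groups. Kpna7 made up 13.6%, 23.0% and 28.1% of the summed importin alpha level per kilobase in the DMSO libraries and 5.50%, 7.22% and 9.02% in those given MS-444. The highest MS-444 share lay below the lowest DMSO share. As plain counts, the nearest pair were DMSO replicate 1, with 12.2% (95% exact binomial interval 11.4% to 12.9%), and MS-444 replicate 3, with 6.95% (6.32% to 7.62%). These intervals cover counting error only, and take each count as independent, which counts from PCR-amplified cDNA may not be. Kpna1 had the opposite pattern, at 2.88%, 1.37% and 2.17% of the level per kilobase in DMSO and 8.66%, 8.23% and 7.69% in MS-444. Kpna2 and Kpna3 together made up most of the level in every library. The Kpna2 share was 39.6% ± 16.1 in DMSO against 38.8% ± 3.87 with the inhibitor, and the Kpna3 share 35.6% ± 9.13 and 43.3% ± 5.12 (SD, n = 3).

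The summed importin alpha level was 714.7 ± 145.0 CPM per kilobase in DMSO against 465.6 ± 141.8 with the inhibitor (SD, n = 3), and the groups overlapped, with MS-444 replicate 1 at 626.3 and DMSO replicate 2 at 572.3. Set against Kpnb1 on the same scale, adaptor RNA exceeded receptor RNA 77.7-fold, 66.1-fold and 71.3-fold in the DMSO libraries and 40.1-fold, 25.9-fold and 22.2-fold in those given MS-444. The ratios of the groups did not overlap. Their size depends on the lengths of joined exons, such as 2873 bases for Kpna2 and 6590 for Kpnb1, and is smaller as plain counts. There were 7539, 8813 and 10468 importin alpha counts in the DMSO libraries against 183, 248 and 257 for Kpnb1. In MS-444 there were 7102, 5546 and 5999 against 281, 352 and 437.

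**Figure D3:**
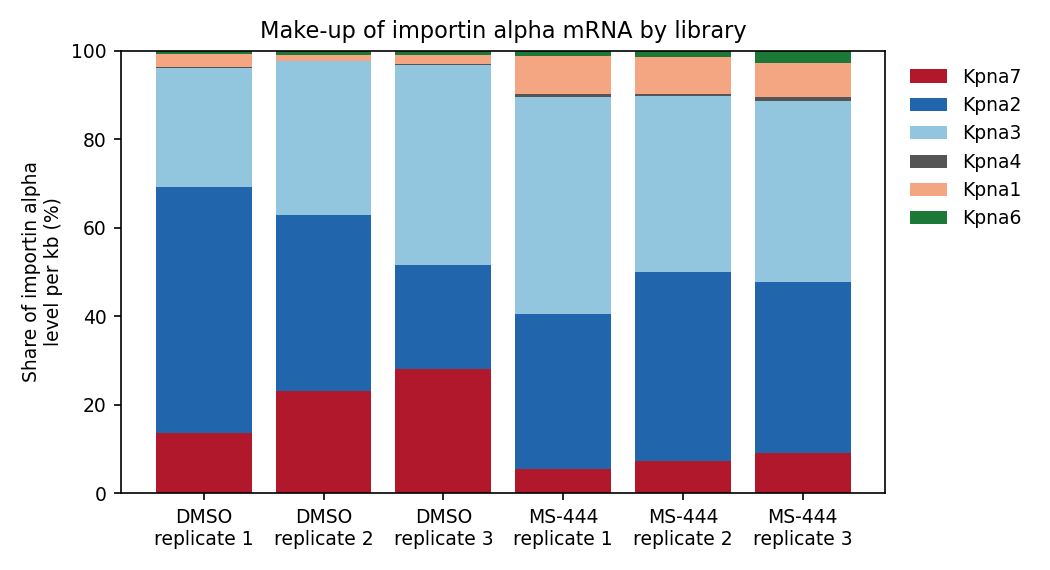
Share of each importin alpha gene in the summed importin alpha level per kilobase (percent, stacked to 100) in each of the 6 libraries. The Kpna7 share is 13.6% to 28.1% in DMSO and 5.50% to 9.02% in MS-444, and the Kpna1 share is 1.37% to 2.88% and 7.69% to 8.66%.

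Ratios of counts within a library do not depend on scaling. There were 1.74 to 6.23 Kpna7 counts for each Kpna1 count in DMSO and 0.235 to 0.433 in MS-444. For each Kpna3 count there were 0.367 to 0.483 Kpna7 counts in DMSO and 0.0817 to 0.161 in MS-444, and for each Kpnb1 count 5.02 to 9.54 and 0.889 to 1.05. None of these ranges overlapped between groups. The ratio to Kpna2 came nearest to overlapping, at 0.266 to 1.31 in DMSO and 0.172 to 0.254 in MS-444, and DMSO replicate 1 was the nearest control library.

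The genes nearest to Kpna7 in profile over the 6 libraries were Nlrp4a, Oas1c, Patj, Naa11, Nlrp4f and Zfp750, by the Euclidean distance between centred log2(CPM + 1) values among 5704 genes with a mean of at least 20 CPM. Their distances were 0.36 to 0.47, where the median gene stood at 2.68. Nlrp4a and Nlrp4f, NLR family genes expressed in the oocyte, went from means of 1090 to 265.6 CPM and of 2933 to 784.8 CPM. Oas1c, a member of the 2′-5′-oligoadenylate synthetase family, went from a mean of 545.7 to 131.0 CPM. All 3 belong to families of similar genes, so shared reads could have been split between copies. The polarity gene Patj, the acetyltransferase gene Naa11 and the zinc finger gene Zfp750 had log2 fold changes of -1.99, -1.97 and -2.50. All 6 were at their highest in DMSO replicate 3, as Kpna7 was. They were chosen for their nearness to its profile, so the shared pattern follows from the choice. Among the importins Kpna3 was the nearest to Kpna7, at a distance of 2.37, with 2109 genes nearer, and Kpna1 the farthest, at 4.56, with 5292 genes nearer.

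**Figure D4:**
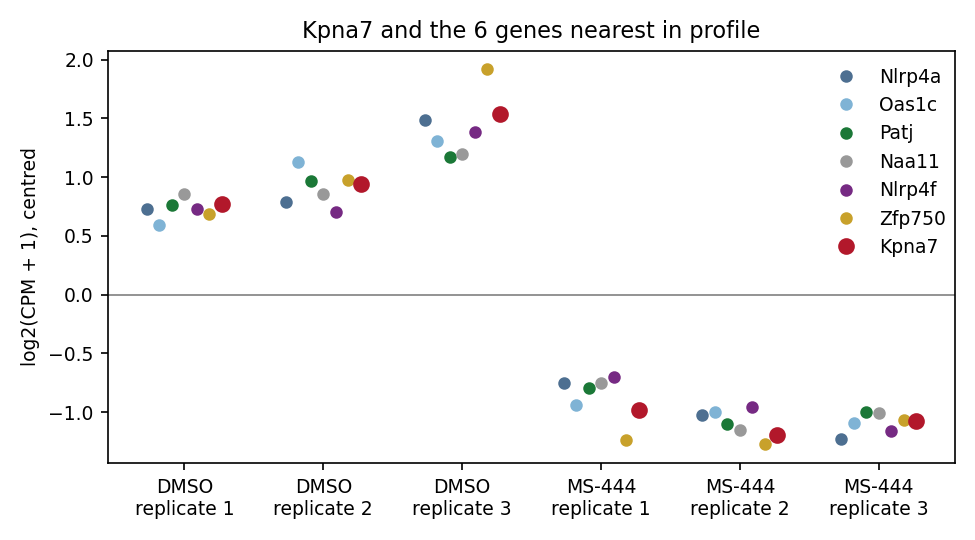
Centred log2(CPM + 1) of Kpna7 and the 6 genes nearest to it in each of the 6 libraries, each point a gene. All 7 genes lie above their own mean in the DMSO libraries and below it in the MS-444 libraries, a likeness by which the 6 were chosen.

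The rest of the nuclear transport machinery was read from 5 lists taken from textbook roles. Of 62 tested genes, 45 were not called, 7 (11.3%) rose and 10 (16.1%) fell in edgeR's quasi-likelihood test, where 14.4% of all genes tested rose and 11.1% fell, so the lists together lay near the overall share. With 1 library left out, the 17 calls came to 10 for DMSO replicate 2, 9 for DMSO replicate 3, 11 for MS-444 replicate 1, 5 for MS-444 replicate 2 and 6 for MS-444 replicate 3. The median log2 fold change of the lists together was 0.04, against 0.02 for all genes tested. Most of the fallen genes were nucleoporins, and the risen genes were spread over 4 of the 5 lists.

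Of 10 genes of the Ran cycle and importin recycling, 2 rose and 0 fell (median log2 fold change 0.62). Ran, the GTPase that gives import its direction, rose from 129.6 ± 38.4 to 236.0 ± 15.6 CPM (SD, n = 3, edgeR adjusted p = 0.041, log2 0.87, SE 0.27). Rangap1, which makes Ran hydrolyse its GTP, rose from 12.3 ± 6.07 to 27.7 ± 4.83 CPM (log2 1.20, edgeR adjusted p = 0.044). Both calls were lost when any library other than DMSO replicate 1 was left out, that of Rangap1 also with offsets for length and GC and that of Ran also without a filter on low counts. With DESeq2 and with limma the counts were 2 higher and 0 lower as well, and 4 and 0 genes had an unadjusted p under 0.05 in edgeR. Among all 11864 genes tested, 2573 were higher and 2181 lower at that unadjusted p. Nup50, the most abundant member by its mean over both groups although below Ran and Ranbp2 in mean level with MS-444, which helps to release cargo from importin alpha, had a log2 fold change of -0.27 (edgeR adjusted p = 0.43). Cse1l, the exportin of importin alpha, stood at 130.7 ± 62.4 and 135.3 ± 98.9 CPM, a log2 fold change of 0.05 (SE 0.49) whose error leaves changes in either direction.

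Of 12 other import receptors and adaptors, 2 (16.7%) rose and 1 (8.33%) fell (median 0.57), near the 14.4% and 11.1% of all genes tested. Snupn, the adaptor that brings spliceosomal snRNPs to importin beta, rose from 34.2 ± 13.6 to 87.7 ± 11.2 CPM (edgeR adjusted p = 0.014, log2 1.37, SE 0.32), a call lost only without MS-444 replicate 2 among the 15 alternatives. Ipo5, a receptor of ribosomal proteins and histones, rose by 0.91 (edgeR adjusted p = 0.048), a call that held in 7 of the 15. Tnpo1, the receptor of hnRNP proteins, fell from 289.0 ± 32.3 to 163.2 ± 19.7 CPM (edgeR adjusted p = 0.026, log2 -0.83, SE 0.23) and lost its call with library totals and when replicate 3 of either group or replicate 2 of MS-444 was left out. Ipo8, the most abundant, had a log2 fold change of -0.43 (edgeR adjusted p = 0.21). Of 7 exportins, Xpot, the carrier of tRNA, rose from a mean of 5.98 CPM (edgeR adjusted p = 0.015, log2 1.87, SE 0.44), and 0 fell by edgeR, DESeq2 or limma, or at an unadjusted p under 0.05 in edgeR. The Xpot call made up 14.3% of the tested exportins, near the 14.4% of all genes tested that rose. It was lost when any of the libraries named for Tnpo1 was left out. Xpo1, the main protein exportin and the most abundant of the 7, had a log2 fold change of 0.77 (edgeR adjusted p = 0.16). That value rested on MS-444 replicate 1, at 567.1 CPM where the other MS-444 libraries were at 198.4 and 232.4 CPM, and was 0.09 without it.

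Of 26 tested nucleoporin genes, 9 fell and 2 rose (median -0.29), or 34.6% and 7.69%, where 11.1% and 14.4% of all genes tested did. The summed oocyte markers were lower in the same libraries, at 2089 to 2423 CPM against 4045 to 6453 CPM, and their part in these falls was not tested. Rae1, an mRNA export factor of the pore that also works at the spindle, fell from a mean of 130.0 CPM to 38.0 ± 6.65 CPM (edgeR adjusted p = 0.0037, log2 -1.77, SE 0.27). Nup85 (-1.63) and Nup37 (-1.62), of the Y-shaped scaffold complex, and Nup54 (-1.45), of the central channel, fell as well, and these 4 calls held in each of the 15 alternatives. Nup43 (1.1) and Nup133 (1.5), members of the same Y-shaped complex, rose, and their calls were lost when replicate 2 of either group or replicate 1 of MS-444 was left out, that of Nup43 also without replicate 3 of either group. Tpr of the nuclear basket, the most abundant, had a log2 fold change of 0.18 (edgeR adjusted p = 0.65). In place of 9 falls there were 4 when MS-444 replicate 3 was left out, 5 without replicate 2 of that group, 7 with DMSO replicate 2 left out, and 6 with library totals. There were 12 falls with offsets for length and GC, and 10 with DESeq2, with limma and without DMSO replicate 1.

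Of 7 spindle factors that importins hold inactive until Ran releases them, 0 rose and 0 fell in edgeR, DESeq2 or limma, and 0 had an unadjusted p under 0.05 in edgeR. Of all genes tested, 14.4% rose and 11.1% fell in edgeR. Tpx2, which nucleates spindle microtubules, stood at 339.5 ± 23.6 and 299.3 ± 108.2 CPM (log2 -0.18, SE 0.27), and the 7 values ran from -0.56 for Nusap1 to 0.74 for Kif22. The errors of these values do not show that their levels were alike.

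**Figure D5:**
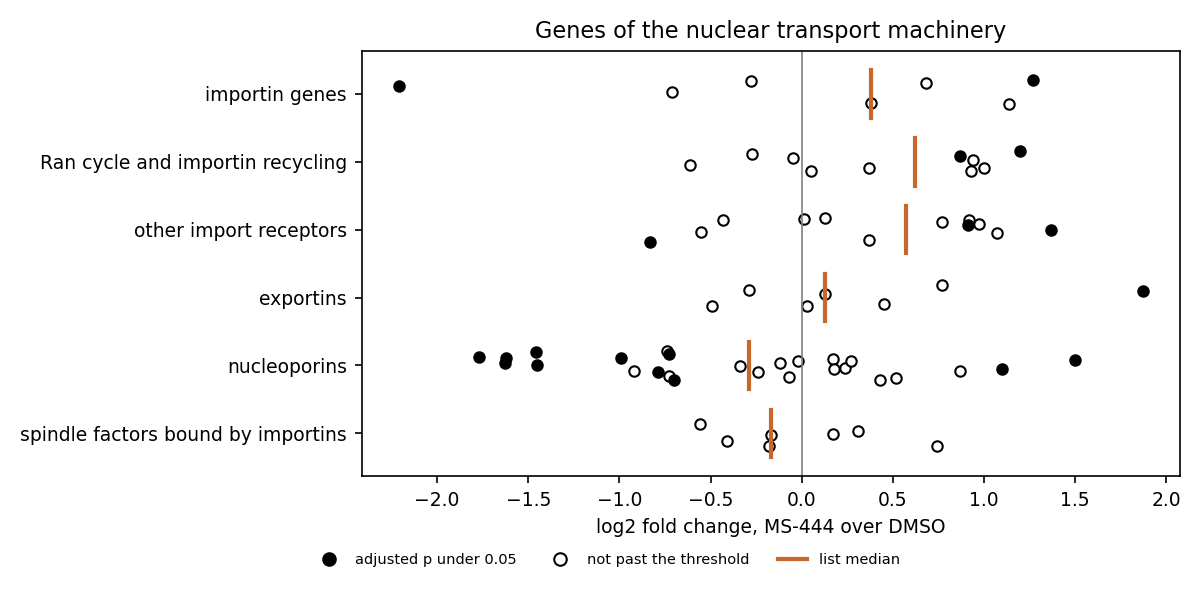
Log2 fold change of MS-444 over DMSO for each tested gene of the importins and the 5 transport lists. Filled points passed an adjusted p of 0.05 in edgeR, open points did not, and bars mark list medians, which run from -0.29 for the nucleoporins to 0.62 for the Ran cycle.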

How the data were processed

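Per the labels' protocols, cDNA was made from lysates of 16 embryos per sample, combined across samples, and amplified by PCR before library construction. The authors deposited raw read counts per Ensembl gene. The submitters' processing notes name HISAT2, Cufflinks 2.2.1 and mm9. How reads were counted, on which annotation, with or without strand, and what became of reads with several matches was not stated in the labels or notes used here. Replicates are not stated to be separate cultures, so p-values measure only how these samples vary, and that variation may be technical.

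GENCODE M21 gave symbols for 29075 of 29139 identifiers, and lengths. It and the RefSeq promoters are on GRCm38, and no coordinates were taken from the counts. edgeR 4.0.16 (R 4.3.3) kept 11864 genes at a minimum count of 10, holding 98.8% to 99.3% of counts. TMM factors were 0.933 to 1.11. MS-444 was tested against DMSO by the two-sided quasi-likelihood test with Benjamini-Hochberg adjustment over all genes and a threshold of 0.05. SEs were derived from that test. limma 3.58.1 and DESeq2 1.42.0 were alternatives.

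The importin members and the 5 transport lists were chosen with earlier results of these data known. Named are the 7 members, up to 4 called genes of each list in each direction by smallest adjusted p, its most abundant gene by mean CPM over the 6 libraries, and the 6 genes nearest to Kpna7. Cse1l, Nusap1 and Kif22 fall outside this rule and were chosen after their values were seen. Of 64 listed transport genes 63 were in the table, and Nup210 was below the filter. Nup42 was matched as Nupl2.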

Additional observations from a re-analysis of the deposited data

How the results depend on the processing

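The number of genes changed was 3028 and stayed within 1.5 times that under other scalings, filters, robust dispersions, limma, DESeq2 and offsets for GC content and length. It ran from 1171 to 3820 with 1 library left out, and lay over 1.5 times below 3028 for replicates 2 (2006) and 3 (1774) of DMSO and replicates 2 (1211) and 3 (1171) of MS-444. The share of calls that were higher was 56.3%, against 71.2% with library totals and 45.0% with the GC and length offsets, and library totals moved the median gene to 0.20 on the log2 scale. Leaving out 1 library gave 1 to 2 importin genes called in place of 2, 5 to 18 transport genes in place of 17, 0 to 2 Ran cycle genes in place of 2, 0 to 3 other import receptors in place of 3, 0 to 1 exportins in place of 1 and 5 to 12 nucleoporins in place of 11. Without a filter on low counts 5 other import receptors were called. The direction of each importin gene held in all 15 alternatives, and that of Tpr turned without MS-444 replicate 1 (-0.18, with 0.28 as the highest value on leaving out 1 library). The Kpna7 share of importin alpha was 21.6% in DMSO and 7.25% in MS-444, with 22.2% and 7.35% by longest transcript and 18.6% and 5.58% by plain counts.

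The groups share replicate numbers, but the numbers were not taken as pairs: the deviations of same-numbered libraries correlated across genes at 0.055, 0.371 and -0.10 for replicates 1, 2 and 3, so only the libraries numbered 2 passed 0.1, and not every library correlated best with its own number. With a replicate block 3405 genes were called, with 4 Ran cycle genes and 5 other import receptors. Precision is limited by 3 libraries a group, and for Kpna4 by counts of 15 to 112 per library.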
